A study of Rattus norvegicus with 97 samples.

Results

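The motor genes examined here were the 61 genes whose single symbol in the array annotation begins with Kif followed by a digit or c, with Klc followed by a digit, with Dync, or with Myo followed by a digit. They were 30 kinesin heavy chain genes (Kif), 4 kinesin light chain genes (Klc), 9 cytoplasmic dynein genes (Dync) and 18 myosins outside class II, the class of muscle myosin (Myo), out of 14217 genes that carried 1 symbol. The 61 genes were measured by 101 probe sets, and each gene was read at its brightest one by the mean over all arrays. For 35 genes there was 1 probe set, for 26 there were 2 or more, and the most for any gene was 5. All probe sets are given for Kif15, Kif5c and Myo5c.

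Kinesins and cytoplasmic dynein walk on microtubules and myosins on actin, each using the energy of ATP. In a neuron most kinesins carry organelles, vesicles and RNA from the cell body out along the axon, dynein 1 brings cargo back, and class V myosins take the last short steps into dendritic spines and terminals. A separate set of kinesins builds and moves the mitotic spindle and belongs to dividing cells, and dynein 2 runs inside cilia. Kinesin light chains join Kif5 heavy chains to their cargo.

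RNA of the nucleus accumbens shell, the part of the ventral striatum that takes part in reward, had been measured on 97 arrays, 1 per rat. The rats came from 5 pairs of lines bred for high or low alcohol intake: P with NP, HAD1 with LAD1, HAD2 with LAD2, AA with ANA and sP with sNP. The line named first in each is the alcohol-preferring one. LAD1, sP and sNP had 9 animals and the other lines 10, and the labels give no age, sex or alcohol exposure. The lines were bred apart, so that a difference within a pair is a difference between 2 breeding populations, and the spread between animals does not hold the spread between such populations. The comparisons ask which genes of this region differ between such lines. Values are deposited log2 RMA signals, on which 1 unit is a doubling of signal, and differences are the preferring minus the non-preferring line. Calls are at a limma adjusted p under 0.05, with the adjustment over all 31042 probe sets tested.

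Before any result, 8 arrays stood apart from their labels. A label score was taken from the 50 probe sets that best part the lines of a pair in the other animals, motor genes left out. It is 0 for a typical animal of the non-preferring line and 1 for one of the preferring line. HAD1 animal 28 scored -0.01 and LAD1 animal 37 scored 1.02, AA animal 19 scored -0.02 and ANA animal 20 scored 0.93, and P animal 9 and NP animal 9 scored 0.46 and 1.05. Animals 4 of sP and of sNP scored 0.40 and 0.48. AA 19 was most like sP (mean correlation 0.9947, against 0.9795 with the other AA arrays) and ANA 20 most like sNP (0.996, against 0.9864 with ANA). Their Gapdh 3' minus 5' values, 0.54 and 0.40, were also near the sP and sNP medians of 0.42 and 0.44. These departing arrays kept their labels. They were picked because they did not score with their line, so that leaving them out favours a difference between the lines of a pair. Where a call within a pair changes without these arrays, both values are given. This holds for a gene's brightest probe set and for any probe set of Kif15, Kif5c and Myo5c. For the average over the pairs and the test of equal differences, only counts at the brightest probe sets are given without the departing arrays. HAD2 and LAD2 held none.

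The tissue label was checked on markers of medium spiny neurons, which make up most of the region. Their mean log2 signal had a line median between 11.8 and 12.8 in all 10 lines, but single arrays reached down to 9.54 in P and 10.3 in sP. A marker index, spiny neuron markers minus pallidal, septal and basal forebrain markers, had medians of 3.26 in sP and 4.06 in sNP and between 3.88 and 4.65 in the other lines. The Affymetrix Gapdh 3' minus 5' value, which follows RNA integrity and labelling, had line medians from 0.04 in AA to 4.94 in LAD1. Its medians were close within pairs, with the widest gap in HAD1 and LAD1 (4.65 and 4.94). Levels are therefore compared within pairs, and no order of levels is drawn across pairs.

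Most motor genes were at nearly the same level in both lines of every pair. Of the 305 differences of 61 genes in 5 pairs, 279 were smaller than 0.25, 9 were larger than 0.5 and 3 were larger than 1. There were 19 calls, in 14 genes, and 47 genes were called in no pair. Leaving out the departing arrays added Kif1c in 3 pairs, Dync2h1, Klc4, Myo10 and, in AA/ANA, Myo5c, and 44 genes were then called neither way. The 11 members whose mean over all arrays was under 6, among them the mitotic kinesins Kif11, Kif14, Kif18a and Kif18b, had no call.

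By pair, 2 of 61 motor genes (3.28%) were called in P/NP with all arrays, both lower in P, where 0.935% of all genes were called, and 4 without the departing arrays, where 1.96% were. In HAD1/LAD1 there were 3 (4.92%; 2 higher and 1 lower; all genes 0.95%) and 5 without the departing arrays (all genes 3.5%). HAD2/LAD2 gave 1 (1.64%), higher in HAD2, against 4.47% of all genes. AA/ANA gave 0 of 61 with limma, against 1.84% of all genes, with 4 motor genes at an unadjusted p under 0.05, and 0 with limma's trended and robust variance. Without AA 19 and ANA 20 it gave 2, against 3.85% of all genes. In sP/sNP 13 were called (21.3%), 9 higher and 4 lower in sP, where 15.1% of all genes were called, and 14 without the departing arrays (all genes 17.7%). The median size of a motor gene's difference was 0.06 in P/NP, 0.05 in HAD1/LAD1, 0.04 in HAD2/LAD2, 0.06 in AA/ANA and 0.10 in sP/sNP. Over all genes these medians were 0.05, 0.05, 0.06, 0.05 and 0.09. The typical size of a difference was thus near that of other genes. The share called was higher than that of all genes in P/NP, HAD1/LAD1 and sP/sNP and lower in HAD2/LAD2 and AA/ANA with all arrays, on counts of at most 3 genes outside sP/sNP.

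Among the mitotic kinesins, Kif15 moved in 4 of 5 line pairs and not in one direction. Kif15 is a plus-end motor that holds the bipolar spindle together alongside Kif11, and in rodents it is also found in migrating neurons. It was measured by 1 probe set, 1374794_at. Whether its probes lie over bases that differ between the lines was not tested, so that a difference in RNA and one in hybridisation cannot be told apart here, nor for any other probe set. In HAD2 the 10 animals ran from 8.46 to 9.13 with a median of 8.87, and in LAD2 from 6.40 to 7.32 with a median of 6.84. Every HAD2 animal lay above every LAD2 animal, a 3.998-fold difference (2.00 ± 0.11 SE, adjusted p = 2.32e-11). In HAD1 the values ran from 7.04 to 9.22 (median 8.73) and in LAD1 from 6.02 to 8.57 (median 6.71). The lines overlapped through the departing arrays alone: HAD1 28 was the lowest of its line and LAD1 37 the highest. The difference was 1.78 ± 0.28 (adjusted p = 0.00617) with all arrays, and 2.168 ± 0.13 (adjusted p = 1.61e-09) with no overlap without them.

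In the other pairs Kif15 was lower or level in the preferring line. P animals ran from 5.46 to 6.58 (median 5.71) and NP animals from 5.89 to 7.51 (median 6.95), a fall of 2.00-fold in P (-0.998 ± 0.18, adjusted p = 0.00727). The mean of P was 5.89, as low as in genes with a mean under 6, so that the fold is less certain. The call held with the Gapdh value as covariate (adjusted p = 0.0297) and with animal number as a block (adjusted p = 0.0452). The lowest NP value was NP 9 and the highest P value P 9, and without them the lines did not overlap (-1.18 ± 0.15, adjusted p = 8.65e-05). The 9 sP animals, from 6.74 to 7.28 with a median of 7.06, all lay below the 9 sNP animals, from 7.35 to 7.89 with a median of 7.57 (-0.53 ± 0.08, adjusted p = 0.000213). AA (6.86 to 7.69, median 7.26) and ANA (7.09 to 7.91, median 7.40) overlapped almost wholly, and the difference was -0.13 ± 0.11 (adjusted p = 0.909). A test of whether the 5 differences were equal gave an adjusted p = 3.70e-21 for Kif15. This test called 7 of the 61 motor genes, against 11.8% of all genes, and 12 without the departing arrays, against 18.2%.

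**Figure D1:**
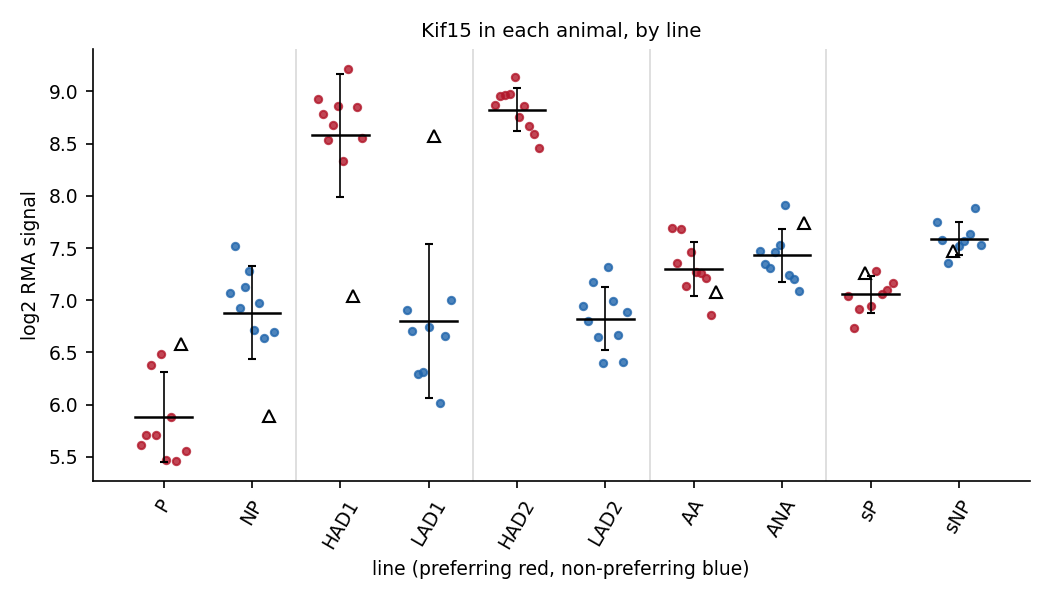
Kif15 in each of the 97 animals, as log2 RMA signal on the y axis, by line on the x axis, with preferring lines in red and non-preferring lines in blue. Horizontal lines are line means with their SD, and open triangles are the 8 departing arrays. HAD2 lies wholly above LAD2 and sP wholly below sNP, and in HAD1/LAD1 and P/NP the triangles are the animals that cross.

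The other 10 mitotic kinesins showed no such differences, but most were dimmer than Kif15. Kif11, Kif14, Kif18a, Kif18b, Kif20b and Kif2c had means under 6 over all arrays. Kif22 alone had a higher mean (7.79) than Kif15 (7.32), and a difference in a dim gene may not show. The 10 were the spindle motors Kif11, Kif18a, Kif18b, Kif22, Kif2c and Kifc1 and the midzone and cytokinesis motors Kif14, Kif20a, Kif20b and Kif23. Over the 5 pairs their differences lay between -0.21 and 0.15, with 0 called by limma, with and without the departing arrays, and 2 of the 50 at an unadjusted p under 0.05. Kif23 differed by 0.13 in P/NP, -0.11 in HAD1/LAD1, 0.03 in HAD2/LAD2, -0.09 in AA/ANA and -0.12 in sP/sNP. Of 19 measured markers of dividing cells and spindle partners of the kinesins, 0 were called in P/NP and in sP/sNP. In HAD1/LAD1 the midzone protein Prc1 was lower (-0.21, adjusted p = 0.0352), in HAD2/LAD2 the proliferation marker Mki67 was lower (-0.22, adjusted p = 0.0268), and in AA/ANA the ubiquitin carrier Ube2c was higher (0.27, adjusted p = 0.0258). Without HAD1 28 and LAD1 37, cyclin A2 (Ccna2) was higher in HAD1 (0.71, adjusted p = 0.00713; 0.58 and adjusted p = 0.103 with them). The mean log2 signal of the list had line medians of 6.28 in HAD1 and 6.26 in LAD1, and of 6.33 in HAD2 and 6.34 in LAD2, the pairs in which Kif15 differed most. The list was thus dim as well.

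The promoters are shown because many mitotic genes carry a cell-cycle element, TTTGAA, near their start, and Kif15 alone of the mitotic kinesins was called. Below are the 250 bases before the annotated start of Kif15 (GRCr8 chr8:131479154-131479403, plus strand) and of Kif23 (GRCr8 chr8:71320585-71320834, minus strand), from RefSeq, 5′ to 3′. Capitals mark TTTGAA on either strand.
Kif15: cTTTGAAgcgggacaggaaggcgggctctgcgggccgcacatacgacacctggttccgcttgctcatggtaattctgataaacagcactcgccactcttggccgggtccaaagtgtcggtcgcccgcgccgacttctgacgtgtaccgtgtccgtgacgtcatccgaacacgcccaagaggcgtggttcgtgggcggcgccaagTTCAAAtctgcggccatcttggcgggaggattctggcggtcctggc
Kif23: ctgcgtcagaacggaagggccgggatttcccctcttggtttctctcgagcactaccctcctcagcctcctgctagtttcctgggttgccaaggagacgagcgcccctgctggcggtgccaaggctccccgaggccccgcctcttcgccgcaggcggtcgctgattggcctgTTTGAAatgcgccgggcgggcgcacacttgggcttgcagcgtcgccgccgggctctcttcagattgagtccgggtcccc
Kif15 holds the 6 letters on the opposite strand 46 bases before its start and again at the far end of the window, and Kif23 holds them 79 bases before. Of the 10 mitotic kinesins with an entry in the promoter table, 5 held the element in this window (Kif15, Kif20b, Kif22, Kif23 and Kifc1), against 16.2% of all 33469 promoters. The letters CCAAT on either strand were in 6 of the 10, Kif15 not among them, and in 34.02% of all promoters. These are letters of the reference strain, and the lines' own sequence was not read.

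The genes around Kif15 were mostly level. Its start lies 146 bases from that of RGD1311745, which runs the other way, and RGD1311745 differed by 0.02 in P/NP, -0.02 in HAD1/LAD1, 0.09 in HAD2/LAD2, -0.10 in AA/ANA and -0.07 in sP/sNP, with no call. Of the 5 measured genes on each side in the gene order of GRCr8, 0 of 10 were called in P/NP, HAD1/LAD1 and AA/ANA. In HAD2/LAD2, where 4.47% of all genes were called, Abhd5, a lipase activator, was lower (-0.22, adjusted p = 0.0132) and the exosome subunit Exosc7 was higher (0.20). In sP/sNP, where 15.1% of all genes were called, Zdhhc3, a palmitoyltransferase, was higher (0.25).

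Of the class V myosins, Myo5c and Myo5a differed in opposite directions between HAD1 and LAD1. Myo5c is the class V motor of secretory granules in glandular epithelia, and Myo5a is the brain form, which carries endoplasmic reticulum into spines. At the brightest Myo5c probe set, 1374122_at, HAD1 animals ran from 9.52 to 11.41 (median 11.18) and LAD1 animals from 8.74 to 11.14 (median 9.18). HAD1 28 was the lowest of its line and LAD1 37 the highest of its own, and they alone made the lines overlap. Myo5c was 3.18-fold higher in HAD1 (1.67 ± 0.26, adjusted p = 0.00617), and 4.17-fold without those arrays (2.06 ± 0.09, adjusted p = 4.83e-12). Myo5a ran from 9.14 to 10.57 in HAD1 (median 9.75) and from 9.85 to 11.36 in LAD1 (median 10.60). HAD1 was lower by 1.87-fold (-0.90 ± 0.17, adjusted p = 0.0123), and the lines did not overlap without the departing arrays (-1.09 ± 0.14, adjusted p = 2.99e-05).

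Myo5a and Myo5c are next to each other in the gene order of GRCr8. Of the 10 measured genes around Myo5c, 3 were called in HAD1/LAD1, where 0.95% of all genes were called. They were Myo5a itself, the apoptosis regulator Bcl2l10 (0.26) and the actin-capping Tmod3 (-0.34, adjusted p = 0.0428). In sP/sNP, where 15.1% of all genes were called, 4 of the 10 were called. The phosphatase inhibitor Arpp19 (-0.88, adjusted p = 0.0319), the G protein subunit Gnb5 (-0.28, adjusted p = 0.0302) and Bcl2l10 (-0.36, adjusted p = 0.0370) were lower. Mapk6 was higher (0.28, adjusted p = 0.0352). In the other 3 pairs 0 were called.

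The 3 probe sets of Myo5c did not agree in HAD1/LAD1. Probe set 1380067_at was higher in HAD1, with 7.85 to 8.91 (median 8.53) against 7.41 to 8.81 (median 7.64) in LAD1 (0.82 ± 0.16, adjusted p = 0.0133). Probe set 1391018_at, with 4.60 to 5.66 (median 5.02) against 5.20 to 5.98 (median 5.62), was lower (-0.54 ± 0.11, adjusted p = 0.0175). Neither overlapped between the lines once HAD1 28 and LAD1 37 were left out (1.03 and -0.66). The direction for Myo5c in this pair thus holds for 2 of its 3 probe sets. Probe set 1391018_at was dim, with a mean of 5.92 over all arrays, under the minimum of 6 of the filtered fit, and bases that differ between the lines under these probes were not tested.

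In sP/sNP all 3 Myo5c probe sets were lower in sP. At 1374122_at, sP ran from 5.60 to 7.81 (median 6.86) and sNP from 7.51 to 8.24 (median 7.74), a 1.98-fold difference (-0.98 ± 0.26, adjusted p = 0.0298) with overlap. At 1380067_at, sP ran from 6.02 to 6.88 (median 6.49) and sNP from 6.49 to 7.26 (median 6.80), and at 1391018_at from 5.14 to 6.05 (median 5.74) and from 5.62 to 6.43 (median 5.93). These differences were -0.40 (adjusted p = 0.0362) and -0.42 (adjusted p = 0.0459). In AA/ANA the 3 probe sets differed by 0.64, 0.64 and 0.16, with no call. Without AA 19 and ANA 20, 1374122_at (0.79, adjusted p = 0.0303) and 1380067_at (0.76, adjusted p = 0.0297) were higher in AA, and AA and ANA still overlapped. In P/NP (-0.25, -0.08 and 0.19) and in HAD2/LAD2 (0.02, -0.01 and 0.11) no Myo5c probe set was called. The P animals were widely spread, from 5.35 to 9.11 at 1374122_at.

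**Figure D2:**
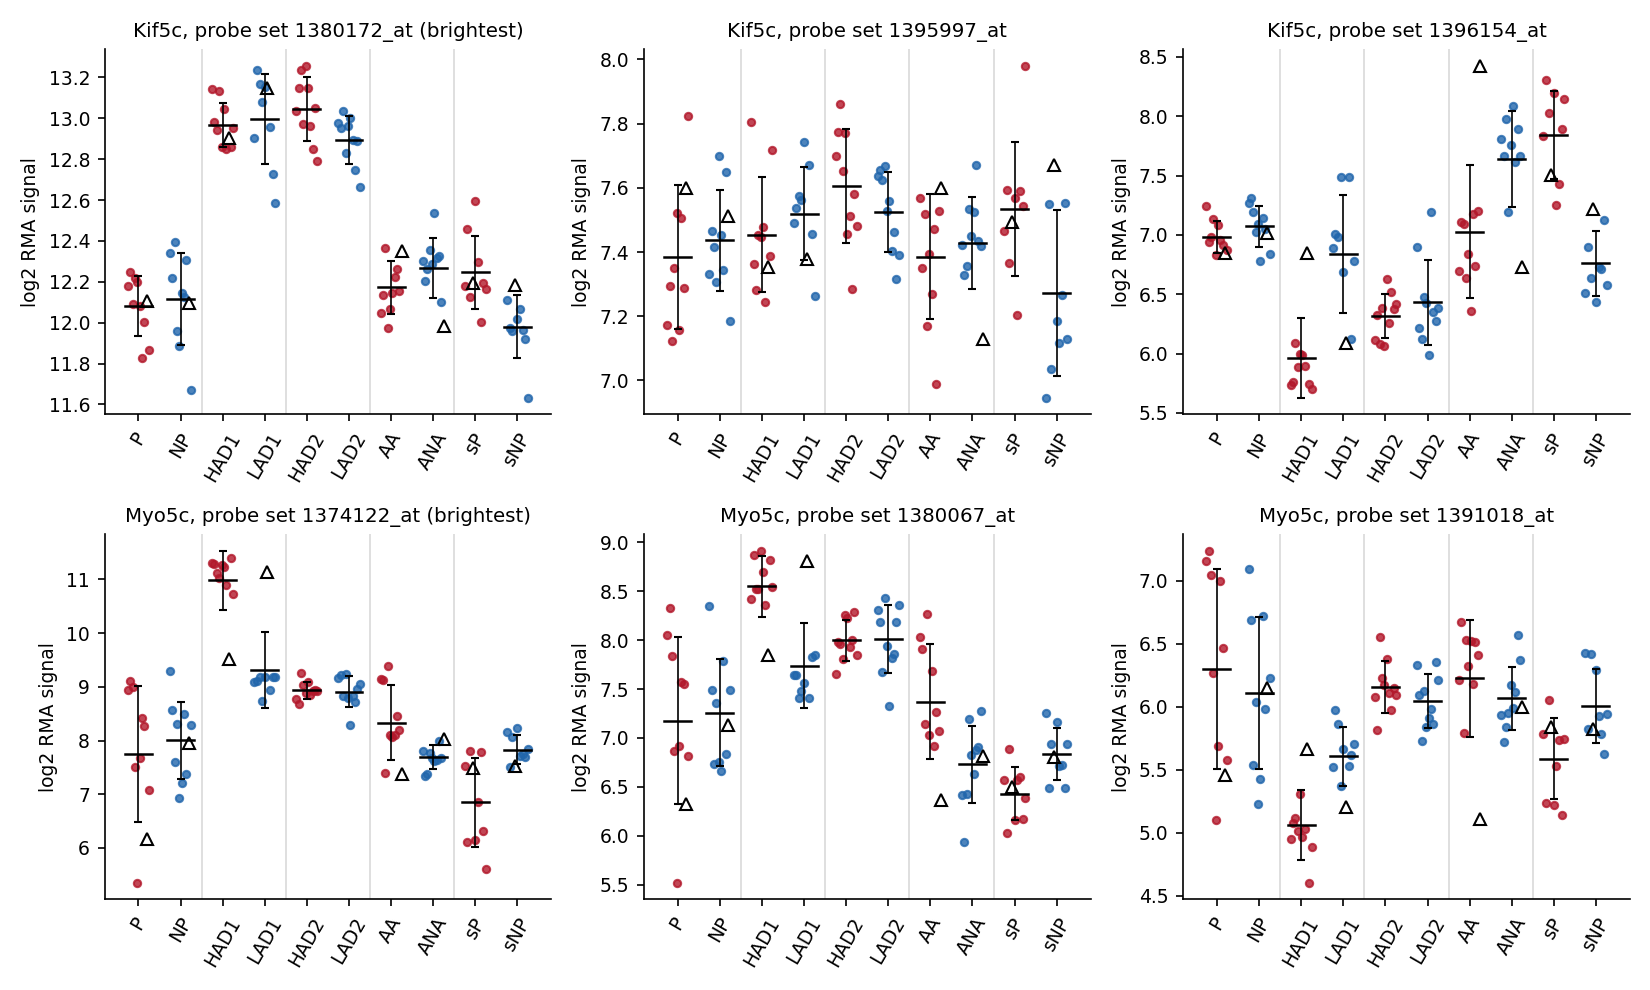
Log2 RMA signal (y axes, which differ between panels) of the 3 probe sets of Kif5c, upper row, and of Myo5c, lower row, in each animal by line (preferring red, non-preferring blue). Lines with bars are means and SD, and open triangles are departing arrays. For Myo5c in HAD1 against LAD1 the first 2 panels go up and the third goes down, and for Kif5c the lines of a pair lie farthest apart at 1396154_at.

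Myo5b, which moves recycling endosomes into spines, was lower in sP, where it ran from 8.48 to 10.15 (median 9.83), than in sNP, where it ran from 9.77 to 10.52 (median 10.33). The lines overlapped, and the difference was -0.75 ± 0.22 (adjusted p = 0.0374). It was not called in the other pairs (-0.17, -0.11, 0.14 and 0.01 in P/NP, HAD1/LAD1, HAD2/LAD2 and AA/ANA). The lowest Myo5b value of all arrays, 7.99, and the lowest Myo5c value, 5.35, were both in P animal 5, whose marker index of -0.18 was the lowest of the study. With the marker index as covariate, the sP/sNP difference was -0.01 for Myo5b and -0.18 for Myo5c, neither called. The index also differed between sP and sNP, so that index and line cannot be fully separated there.

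**Figure D3:**
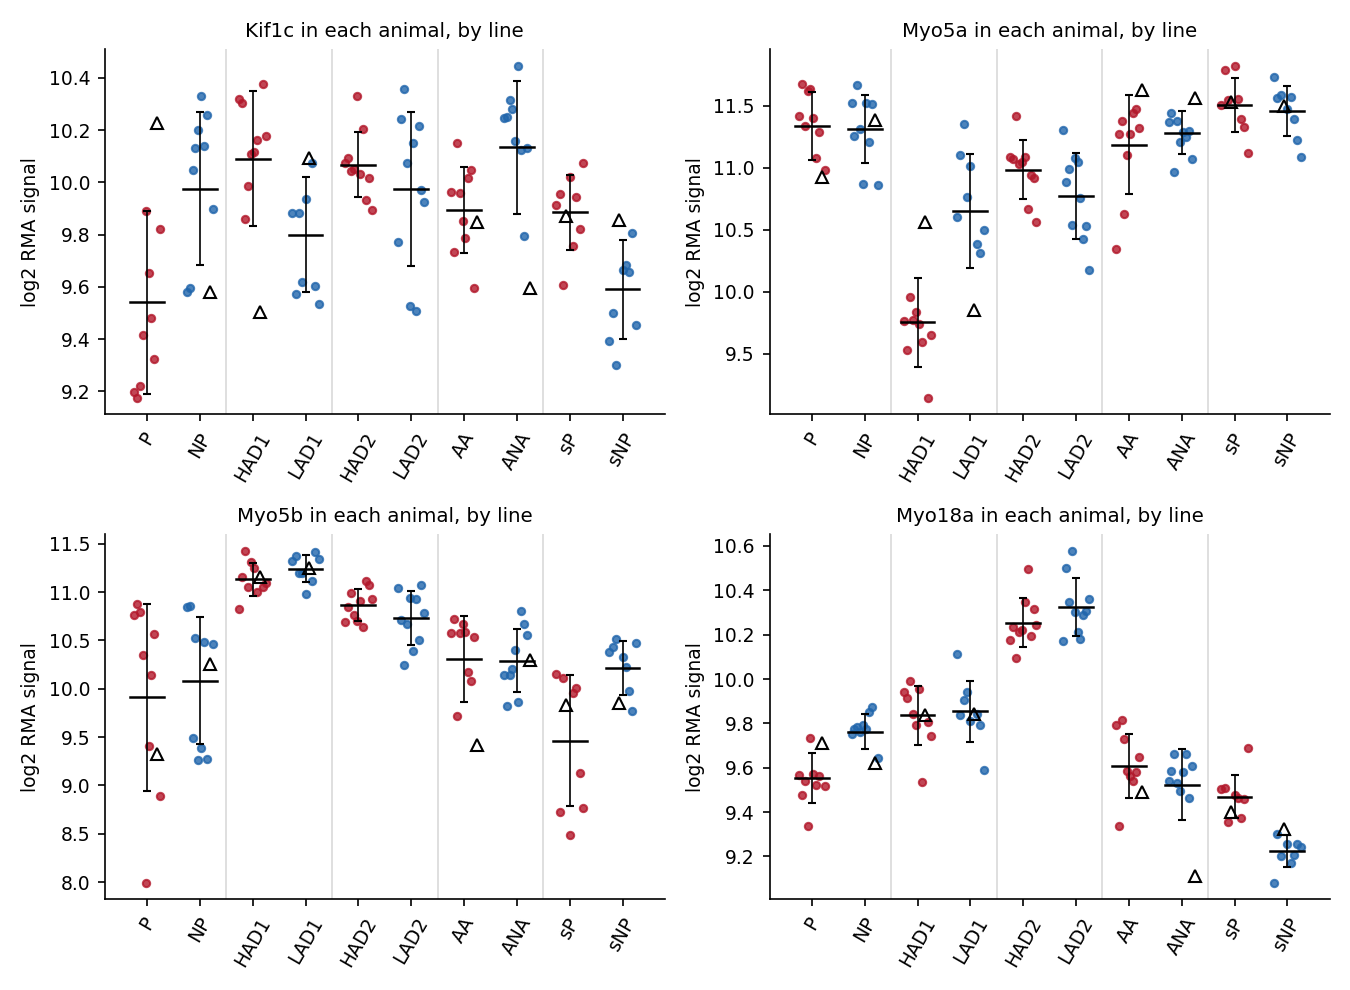
Log2 RMA signal (y axes, which differ between panels) of Kif1c, Myo5a, Myo5b and Myo18a in each animal, by line (preferring red, non-preferring blue), with line means and SD, and departing arrays as open triangles. Myo5a is lowest in HAD1 within its pair, Myo18a separates sP from sNP, and single P and sP animals are low for Myo5b.

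Among the cargo kinesins, 3 of 13 were called, all higher in sP, in the pair where 15.1% of all genes were called: Kif5a, Kif5c and Kif1c. None was called in another pair with all arrays. Kif5a, the neuronal conventional kinesin which is mutated in a human spastic paraplegia, ran from 12.43 to 12.998 in sP (median 12.71) and from 12.04 to 12.75 in sNP (median 12.20). It was 1.327-fold higher in sP (0.41 ± 0.10, adjusted p = 0.0214) with overlap, and its other 2 probe sets, 1375875_at and 1382787_at, were higher as well (0.36 and 0.36, adjusted p = 0.0374 and 0.0446). Kif5b, the conventional kinesin of all cells, differed by 0.12 in this pair with no call.

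Kif5c, the third conventional kinesin and enriched in motor neurons, gave unequal values at its 3 probe sets. At the brightest, 1380172_at, sP ran from 12.002 to 12.60 (median 12.19) and sNP from 11.63 to 12.18 (median 11.97), a difference of 0.26 ± 0.08 (adjusted p = 0.0356). It was not called in the other pairs, where its differences were -0.03, -0.03, 0.15 and -0.09 (P/NP, HAD1/LAD1, HAD2/LAD2, AA/ANA). At 1395997_at the sP/sNP difference was also 0.26 but not called (adjusted p = 0.0946; 0.32 and adjusted p = 0.0498 without the departing arrays), with sP from 7.20 to 7.98 (median 7.54) and sNP from 6.95 to 7.67 (median 7.19).

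Probe set 1396154_at of Kif5c showed larger differences, and here too bases that differ between the lines under the probes were not tested. In sP it ran from 7.26 to 8.31 (median 7.89) and in sNP from 6.43 to 7.22 (median 6.71), with no overlap (1.08 ± 0.14, adjusted p = 9.16e-05). In HAD1 it ran from 5.70 to 6.85 (median 5.89) and in LAD1 from 6.09 to 7.49 (median 6.89), lower in HAD1 (-0.87 ± 0.18, adjusted p = 0.0171). Without HAD1 28, the highest of its line, and LAD1 37, the lowest, these lines did not overlap (-1.06, adjusted p = 6.27e-05). In AA it ran from 6.36 to 8.42 (median 6.96) and in ANA from 6.73 to 8.09 (median 7.71), not called with all arrays (-0.61, adjusted p = 0.153) and lower in AA without AA 19 and ANA 20 (-0.87, adjusted p = 7.68e-05). P and NP (6.83 to 7.24 and 6.78 to 7.31) and HAD2 and LAD2 (6.07 to 6.63 and 5.99 to 7.19) overlapped, with differences of -0.09 and -0.12. The 5 differences at 1396154_at were not equal (adjusted p = 2.98e-10), while at 1380172_at the same test gave an adjusted p = 0.0403. Of the 10 measured genes around Kif5c, 3 were called in sP/sNP, where 15.1% of all genes were called. They were the origin recognition subunit Orc4 (-0.44, adjusted p = 0.0497), Lypd6b, which was higher (adjusted p = 0.0388), and the cobalamin trafficking gene Mmadhc (-0.22, adjusted p = 0.0157). Without sP 4 and sNP 4, Mbd5 was lower too (-0.27, adjusted p = 0.0496). In the other pairs 0 of the 10 were called.

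Kif1c, a fast motor for dense-core vesicles and integrins, differed in sign between pairs. In sP it ran from 9.61 to 10.08 (median 9.91) and in sNP from 9.30 to 9.86 (median 9.66), 1.226-fold higher in sP (0.29 ± 0.08, adjusted p = 0.0264) with overlap. With all arrays it was not called elsewhere: P 9.18 to 10.23 against NP 9.58 to 10.33 (-0.43, adjusted p = 0.183), HAD1 9.504 to 10.37 against LAD1 9.53 to 10.09 (0.29, adjusted p = 0.241), HAD2 against LAD2 (0.09, adjusted p = 0.798), and AA 9.59 to 10.15 against ANA 9.60 to 10.45 (-0.24, adjusted p = 0.287). Without the departing arrays it was lower in P (-0.55 ± 0.12, adjusted p = 0.0163) and in AA (-0.29 ± 0.08, adjusted p = 0.0400) and higher in HAD1 (0.39 ± 0.09, adjusted p = 0.00867) and in sP (0.33 ± 0.08, adjusted p = 0.0169). The lines still overlapped in all 4. With all arrays the test of equal differences rejected equality between the pairs for Kif1c (adjusted p = 0.000101).

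Of the remaining cargo kinesins, 1 other probe set each of Kif1a and Kif13a was called. Kif1a carries synaptic vesicle precursors and dense-core vesicles. Its probe set 1382785_at ran from 8.37 to 9.46 in AA (median 9.20) and from 8.33 to 8.72 in ANA (median 8.50), higher in AA (0.60 ± 0.10, adjusted p = 0.00079) and without overlap once AA 19 and ANA 20 were left out (0.68, adjusted p = 6.16e-07). Probe set 1382785_at was called in 1 pair with all arrays and in 2 without the departing arrays. At the brightest Kif1a probe set the AA/ANA difference was 0.10, and over the 5 pairs it lay between 0.10 and 0.37 with no call. Kif13a, which carries mannose 6-phosphate receptors and recycling endosomes, was higher in sP at 1390319_at (0.42, adjusted p = 0.0307) and not called at its brightest (0.15). The heterotrimeric kinesin-2 motors Kif3a, Kif3b and Kif3c, which serve cilia and axons, had differences between -0.08 and 0.19, and Kif1b, Kif16b, Kifc2 and Kifc3 between -0.13 and 0.17. The Kif1b probe set was dim, with a mean of 4.89 over all arrays, and a difference there may not show.

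Of 6 other kinesins none was called at its brightest probe set. Kif2a, which takes microtubules apart, was higher in sP at 1392532_at (0.16, adjusted p = 0.0249). Kif26b, a kinesin of Wnt signalling that does not walk, was lower in HAD2 at 1374246_at (-0.37, adjusted p = 0.0106) and higher in sP (0.21, adjusted p = 0.0365), with 2 of its 4 probe sets positive in HAD2/LAD2. In sP/sNP this probe set was the only positive one of the 4, and the brightest differed by -0.11. Kif7, the ciliary regulator of Hedgehog signalling, had the largest difference of this group, -0.32 in HAD1/LAD1, with no call, and a median SD of 0.34 within a line.

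Of the kinesin light chains, Klc2 was called in sP/sNP. It ran from 9.52 to 10.20 in sP (median 9.81) and from 9.21 to 9.77 in sNP (median 9.44), 1.271-fold higher in sP (0.35 ± 0.10, adjusted p = 0.0373) with overlap. Klc4 was 0.30 higher with an adjusted p = 0.0519, and 0.35 with an adjusted p = 0.0323 without the departing arrays. Klc1, the main neuronal light chain, had line means between 13.35 and 13.54 at its brightest probe set and no call. Its probe set 1399126_at was higher in HAD2 with no overlap, 10.36 to 10.72 (median 10.56) against 10.05 to 10.30 (median 10.21) in LAD2 (0.36 ± 0.05, adjusted p = 5.29e-05). The same probe set was lower in sP (-0.24, adjusted p = 0.0376), where the other 3, the brightest among them (0.11), were positive. In HAD2/LAD2 3 of the 4 Klc1 probe sets were positive. Probe set 1399126_at was called in 2 pairs with all arrays and in 3 without the departing arrays. Klc3 differed by at most 0.15.

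The dynein 1 genes were level. Dync1h1, the heavy chain that carries the motor, had line means between 12.55 and 13.002 and differences between 0.0018 and 0.067, with a median SD within lines of 0.07. The intermediate chains Dync1i1 and Dync1i2 and the light intermediate chains Dync1li1 and Dync1li2 had differences between -0.11 and 0.15, and 0 of the 5 genes were called in any pair, 2 of them at an unadjusted p under 0.05 in sP/sNP. Of the 4 dynein 2 genes, the light intermediate chain Dync2li1 was lower in sP, 9.84 to 10.22 (median 10.12) against 10.17 to 10.38 (median 10.24) in sNP (-0.17 ± 0.05, adjusted p = 0.0397). The heavy chain Dync2h1 was higher in HAD1 without the departing arrays (0.29, adjusted p = 0.0366; 0.23 and adjusted p = 0.185 with them). Of 7 measured markers of ependymal and ciliated cells, 0 were called in HAD1/LAD1 and in sP/sNP with all arrays. Without the departing arrays Rsph1, a radial spoke protein of cilia, was higher in HAD1 (0.20, adjusted p = 0.0362; 0.18 and adjusted p = 0.093 with them), and its part in the Dync2h1 value was not tested.

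Class I myosins link membranes to actin. Myo1c ran from 8.23 to 8.83 in sP (median 8.56) and from 8.10 to 8.49 in sNP (median 8.23), and was higher in sP (0.27 ± 0.07, adjusted p = 0.0294). Myo1d, abundant in oligodendrocytes, ran from 8.74 to 9.30 (median 9.04) and from 8.31 to 9.05 (median 8.65) and was higher too (0.34 ± 0.11, adjusted p = 0.0404). The second probe sets of Myo1c and Myo1d differed by 0.05 and 0.02 in sP/sNP, with no call. Myo1d differed the other way in HAD2/LAD2 (-0.33) and AA/ANA (-0.34), neither called. Of 10 measured oligodendrocyte markers, 5 were called lower in HAD2/LAD2 and 1 higher in sP/sNP, and the list had a median difference of -0.30, -0.21 and 0.18 in HAD2/LAD2, AA/ANA and sP/sNP. Their part in the Myo1d values was not tested. Myo1e, Myo1f and Myo1g, the last 2 typical of blood-borne cells, were not called.

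Among the other myosins, Myo18a, a myosin of the Golgi and of actin retrograde flow, was called in 2 pairs with opposite signs. In sP it ran from 9.36 to 9.69 (median 9.47) and in sNP from 9.08 to 9.32 (median 9.24), with no overlap and 1.18-fold higher in sP (0.24 ± 0.05, adjusted p = 0.00334). In P it ran from 9.34 to 9.73 (median 9.55) and in NP from 9.62 to 9.87 (median 9.77), lower in P (-0.21 ± 0.05, adjusted p = 0.0305; -0.24 and adjusted p = 0.00526 without the departing arrays). The P/NP call was lost with arrays centred (adjusted p = 0.0541), with the Gapdh value as covariate (0.111) and with animal number as a block (0.108). The test of equal differences rejected equality between the pairs for Myo18a (adjusted p = 0.00011). A second probe set, 1382805_at, was also higher in sP (0.54 ± 0.10, adjusted p = 0.0041), and the third was level there (-0.01).

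Myo15b and Myo16 were higher in sP. Myo15b ran from 6.74 to 7.20 against 6.58 to 6.82 (0.26 ± 0.07, adjusted p = 0.0221), and Myo16, a neuronal myosin that binds phosphatase 1 and the WAVE complex, from 9.42 to 9.96 against 9.27 to 9.65 (0.25 ± 0.07, adjusted p = 0.0372). The second probe set of each had the opposite sign (-0.09 and -0.04). That of Myo15b, 1395968_at, was called in 1 pair, without the departing arrays alone. Myo10, the filopodial motor, was lower in P without the departing arrays, with no overlap (-0.32 ± 0.05, adjusted p = 0.000819), and not called with all arrays (-0.26, adjusted p = 0.0541), when P ran from 7.96 to 8.34 and NP from 8.01 to 8.57. Its second probe set, 1385409_at, had the opposite sign in P/NP (0.08, not called). In P/NP 1 of 10 microglial markers was called lower, and 4 without the departing arrays, with a median of -0.27 over the list, and whether they bear on Myo10 was not tested. Myo6, the motor that walks toward the minus end of actin, was level at its brightest probe set (differences between -0.08 and 0.07). The second Myo6 probe set, 1376804_at, was called in 1 pair, without the departing arrays alone. Myo7a, Myo7b, Myo9a, Myo9b and Myo18b had no call.

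Averaged over the 5 pairs, 2 of 61 motor genes were called with all arrays, where 3.08% of all genes were, and 2 without the departing arrays, where 4.59% were. Kif15 had an average of 0.42 ± 0.08 (adjusted p = 0.000125), but it was higher in the preferring line in only 2 of 5 pairs. Dync2i1, an intermediate chain of dynein 2, had a small average of -0.08 ± 0.02 (adjusted p = 0.0443), was lower in 4 of 5 pairs and was called in none of them. Kif1a was higher in the preferring line in all 5 pairs, with a larger average of 0.24 ± 0.07 that was not called (adjusted p = 0.0538). Of the probe sets that were not a gene's brightest, Klc1 1399126_at was called on the average (0.11 ± 0.03, adjusted p = 0.0439). Thus no motor gene was called in the same direction in more than 2 pairs with all arrays.

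Markers of the region dissected also differed between sP and sNP. Of 11 measured spiny neuron markers 10 were lower in sP (median -0.996), and 2 of 8 pallidal, septal and basal forebrain markers were higher (median 0.40). The spiny neuron list had a mean log2 signal from 10.3 to 12.4 in sP and from 11.8 to 12.7 in sNP. In bulk tissue, fewer cells of a type and less RNA per cell cannot be told apart. With the marker index as covariate, 1 of the 13 genes stayed called: Kif15 (-0.51, adjusted p = 0.0074). The index was itself lower in sP (median 3.26) than in sNP (4.06), so that index and line cannot be fully separated in this fit. Kif5a went from 0.41 to 0.12, Klc2 from 0.35 to 0.03, Myo1d from 0.34 to 0.09, and Myo18a from 0.24 to 0.17. The Kif5c probe set 1396154_at also stayed called (0.73, adjusted p = 0.0037). With the Gapdh value as covariate instead, 2 of the 13 genes stayed called: Kif15 (-0.50, adjusted p = 0.000876) and Myo18a (0.22, adjusted p = 0.0113). Kif5a, Klc2 and Myo1d lost their calls but kept differences of 0.39, 0.30 and 0.27 (adjusted p = 0.058, 0.1 and 0.11). These sizes were nearer those from the lines alone than the sizes with the marker index were. Over all probe sets the sP/sNP calls went from 4006 to 863 with the Gapdh value. In the other 4 pairs none of the 11 spiny neuron markers was called.

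**Figure D4:**
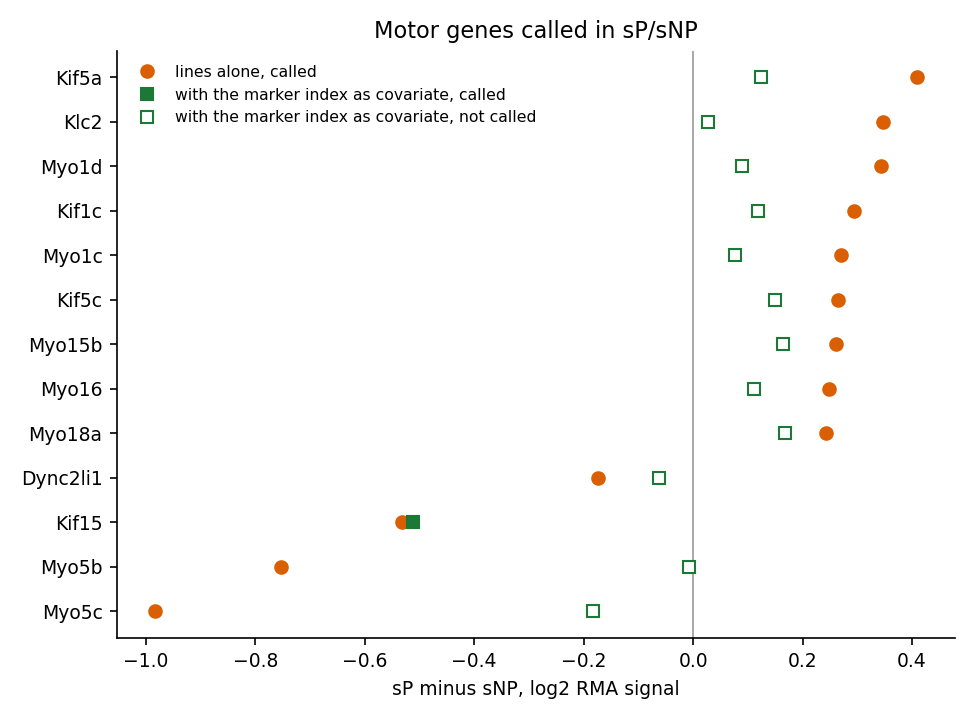
The 13 motor genes called in sP/sNP, with the difference in log2 RMA signal on the x axis from the lines alone (circles) and with the marker index as covariate (squares), filled where called. The Kif15 square stays beside its circle, and the other 12 squares lie nearer 0 than their circles.

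Partners of the motors were read from fixed lists. Of 29 measured microtubule proteins, 11 were higher and 2 lower in sP, where 15.1% of all genes were called, and 0 were called in the other 4 pairs with all arrays. Over all probe sets the sP/sNP calls went from 4006 to 314 with the marker index as covariate, and the microtubule list was not read in that fit. Tubb5 (0.23, adjusted p = 0.0254), Map4 (0.20, adjusted p = 0.0287) and Clip2 (0.45, adjusted p = 0.0328) were among the higher and Mapre3 (-0.15, adjusted p = 0.0375) among the lower. Of 20 kinesin adaptors, the scaffold Kidins220 was higher in sP (0.21, adjusted p = 0.0194) and Lin7a, which joins Kif17 to NMDA receptor cargo, was lower in HAD2 (-0.97 ± 0.10, adjusted p = 9.09e-07). Of 21 dynactin subunits and dynein regulators, the adaptor Hook1 was higher in HAD1 (0.43, adjusted p = 0.0495) and lower in sP (-0.37, adjusted p = 0.0354), and Hook3 (0.59) and Capza1 (0.43) were higher in sP. Of 5 dynein light chains 0 were called in any pair. Of 7 measured axonemal dyneins Dnal1 was higher in HAD1 (0.59, adjusted p = 0.0311) and lower in sP (-0.18, adjusted p = 0.0465), a call that was lost without sP 4 and sNP 4 (-0.20, adjusted p = 0.0504). Without the departing arrays, Clip1 was lower in HAD1 (-0.65), Trak1 (0.19), Trak2 (0.39) and Map6 (0.26) were higher in sP, and Ndel1 was higher in P (0.15).

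Of 12 class II myosin heavy chains, Myh9 was lower (-0.45, adjusted p = 0.0336) and Myh11, also on the mural cell list, higher (0.49, adjusted p = 0.0353) in HAD2. Myh1 was higher in AA (0.47, adjusted p = 0.00232). In sP Myh11 (0.51) and Myh14 (0.31) were higher and Myh7 was lower (-0.71, adjusted p = 0.0302). Of 25 myosin light chains and regulators, the kinase Mylk (0.57, adjusted p = 0.00171) and Mylip (0.30, adjusted p = 0.0419) were higher and Myl2 (-0.23, adjusted p = 0.0262) and the kinase Rock2 (-0.22, adjusted p = 0.0433) lower in sP, and Myl9 was higher in HAD2 (0.38, adjusted p = 0.0194). Without the departing arrays, Myh1 was lower in HAD1 (-0.38), Tpm1 was higher in AA (0.36), and Myh2 (-0.72) and Tpm3 (-0.26) were lower in sP.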

How the data were processed

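Log2 signals were deposited by the authors for 31099 probe sets on 97 rat 3' expression arrays. Per the submitters' processing notes they were made with RMA (version not given in the sources read). No further scaling was applied. Trizol and RNeasy columns served for extraction, per the labels' protocols. After 57 control probe sets were left out, 31042 were tested with limma (version 3.58.1, R version 4.3.3; two-sided), separately in each line pair, with Benjamini-Hochberg adjustment over all 31042. A joint limma fit to all 10 lines gave the average and the test of equal differences. The number of arrays limits the precision, and the labels name separate animals. All 61 symbols matched RefSeq by Entrez ID. Scripts were tested on simulated data. The members and lists were chosen with earlier results of these data known. Named members are Kif15, Kif5c and Myo5c, those called in a pair with or without the departing arrays or on the average, and called list members (up to 4 per list and pair). Alternatives were trend and robust variance, a mean of at least 6, centring, the marker index, the Gapdh value, a replicate block and any probe set. Protein sequences were not used here.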

Additional observations from a re-analysis of the deposited data

Results flagged for a closer look

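Over 220 sets of animals (named members and the extra probe sets of Kif5c and Myo5c, by line), 20 single animals lay far from the rest of their line by Dixon's criterion, which chance meets in about 1 set in 20, and 14 of the 20 were departing arrays. In HAD1/LAD1 the array HAD1 28 was lowest for Kif15 (7.04), Myo5c (9.52) and Myo5c 1380067_at (7.85) and highest for Kif5c 1396154_at (6.85). LAD1 37 was highest for Kif15 (8.57), Myo5c (11.14) and Myo5c 1380067_at (8.81). ANA 20 was highest for Dync2h1 (9.73) and lowest for Myo18a (9.11), Klc2 (9.35) and Myo10 (7.30), and AA 19 was lowest for Myo10 (7.44) and highest for Kif5c 1396154_at (8.42). NP 9 was lowest for Myo10 (8.01).

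The other 6 were arrays that kept to their label: NP 1 was lowest for Myo16 (8.89), sP 9 was highest for Myo18a (9.69) and Kif5c 1395997_at (7.98), sNP 9 was lowest for Kif5c (11.63), LAD1 40 was highest for Dync2li1 (10.94) and LAD1 33 was highest for Myo10 (8.85).

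The test of whether the 5 pair differences are equal called 7 motor genes at their brightest probe set with limma. The adjusted p was 3.70e-21 for Kif15, 8.93e-06 for Myo5c, 3.67e-05 for Myo5a, 0.000101 for Kif1c, 0.00011 for Myo18a, 0.0387 for Dync2h1 and 0.0403 for Kif5c. Kif15 had differences of -0.998, 1.78, 2.00, -0.13 and -0.53 in P/NP, HAD1/LAD1, HAD2/LAD2, AA/ANA and sP/sNP.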

How the results depend on the processing

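Counts of called motor genes moved by more than 1.5 times under these settings, and the cause was not tested. In P/NP (2) the count was 1 with arrays centred, 1 with the Gapdh value, 1 with animal number as a replicate block, 4 with the marker index and 4 without the departing arrays. In HAD1/LAD1 (3) it was 5 without the departing arrays. In HAD2/LAD2 (1) it was 2 with the marker index, 2 with the Gapdh value and 3 with any probe set of a gene. In AA/ANA (0) it was 1 with the marker index, 1 with any probe set and 2 without the departing arrays. In sP/sNP (13) it was 1 with the marker index and 2 with the Gapdh value, and it was 16, a smaller change, with the replicate block. The equal-differences count (7) was 12 without the departing arrays. Signs turned with the marker index for Klc4 in sP/sNP (0 on the log2 scale, adjusted p = 1) and Myo5c in HAD2/LAD2 (-0.030), neither called in either fit. Trend and robust variance and centring each left 41 named differences on their side of the threshold and moved 1. Animal numbers are shared in P/NP and in sP/sNP alone, where the labels name no pairs. Deviations of same-numbered animals from their line means correlated between -0.591 and 0.774 in P/NP (4 of 10 best with their own number). Their median was 0.335, against -0.0294 for other numbers. In sP/sNP they correlated between -0.22 and 0.56 (2 of 9), with a median of 0.108 against 0.0498. The main fits do not use these numbers. The block moved Myo18a in P/NP to an adjusted p of 0.108 and Klc4 in sP/sNP to 0.033. Across all probe sets the marker index lowered the sP/sNP calls from 4006 to 314.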
